A study of Mus musculus with 4 samples.

Results

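The voltage-gated repolarizing potassium channel genes of the mouse heart were compared between cardiomyocytes that overexpressed RBFOX2 and control cardiomyocytes. The set holds 9 genes, taken by name from a gene-level expression table of 48432 rows: the pore-forming genes Kcnq1, Kcnh2, Kcnd2, Kcnd3, Kcna4 and Kcna5, the silent subunit gene Kcnv2, and the accessory subunit genes Kcnip2 and Kcne1. All 9 were found, each in 1 row. RNA came from the contractile cells of the heart, freed by Langendorff perfusion, that is by running enzyme through the coronary arteries. The control group is labelled MHC and the other RbFox2 or Rbfox2 OE, with 2 libraries in each; both groups were of a C57BL x FVB strain background and had eaten a diet with doxycycline, the inducer used in tetracycline-controlled transgenes, for 3 days. The labels do not spell out MHC, and they give neither the promoter and isoform of the transgene nor the age and sex of the animals.

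The values are FPKM, fragments scaled to transcript length and library size, and the table gives 1 pooled value per gene and group, flanked by bounds from the authors whose level is not stated. There is no value per library, so no spread between animals and no test between the groups could be had, and the depth of the libraries is unknown. A gene was called lower or higher in Rbfox2 OE where the log2 ratio, computed with a pseudocount of 1 FPKM added to each value, was at least 1 in size (2-fold) and the bounds of the groups were separate. The ratio understates the difference of genes near or under 1 FPKM, so the plain percentage of the control is given as well. The overexpressed gene went with the labels: Rbfox2 stood at 14.7 FPKM in MHC and 293 FPKM in Rbfox2 OE, and its relative Rbfox1 at 15.7 and 0.300 FPKM.

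These channels carry potassium out of the cell after each heartbeat's upstroke and so end the action potential. In mouse ventricle the fast transient outward current runs mainly through Kv4 channels, built from Kcnd2 (Kv4.2) and Kcnd3 (Kv4.3) with the calcium-binding accessory protein KChIP2, the product of Kcnip2. Kcna4 (Kv1.4) gives the slowly recovering transient outward current, and Kcna5 (Kv1.5) part of the slowly inactivating delayed current. Kcnh2 (ERG) and Kcnq1 (KvLQT1, with its partner minK from Kcne1) form the rapid and slow delayed rectifiers, the main repolarizing currents of large mammals, and mutations in them cause long QT syndrome in people.

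RBFOX proteins bind RNA at a short motif, written TGCATG in DNA letters, so the spliced transcripts of the 9 genes were searched for these 6 letters on the sense strand. The transcript with the longest coding sequence in GENCODE M21 was used for each gene. Each match is shown with the 12 transcript bases on either side where the transcript reaches that far, with the match in capitals (GRCm38).
Kcnd2, coding sequence, chr6:21726004-21726033, plus strand: tttgaagaaagcTGCATGgaagttgccacc
Kcnd3, coding sequence, chr3:105668107-105668136, plus strand: tttgagcagaacTGCATGgagagctcgatg
Kcnd2, 3′ UTR, chr6:21727810-21727839, plus strand: aaaccatcccaaTGCATGctagaattcttt
Kcnd2, last bases of the 3′ UTR, chr6:21729777-21729805, plus strand: aaataaaacatgTGCATGcttgaacagga
Kcna4, 3′ UTR, chr2:107297952-107297981, plus strand: aaccaaagttatTGCATGcacagagagaat
Kcnq1, coding sequence, chr7:143183647-143183676, plus strand: tcctgcggatgcTGCATGtcgatcgccagg
Kcnh2, coding sequence, chr5:24348395-24348424, minus strand: cctgcgatttccTGCATGggccgcgcacgc
Kcnq1 held 1 further match in its coding sequence, not shown because its flanking bases cross a splice junction. Kcnip2, Kcna5, Kcnv2 and Kcne1 held 0 matches. Over 11088 coding genes that averaged 1 FPKM or more, 53.0% had at least 1 match in the transcript and 31.3% had one in the 3′ UTR, so a match is common. The median log2 ratio was -0.09 for the 3473 genes with a match in the 3′ UTR and -0.06 for the 7615 without. A match describes the letters of the transcript and does not show that RBFOX2 binds there; introns, where RBFOX2 also binds, were not searched.

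Of the 9 genes, 7 averaged 1 FPKM or more across MHC and Rbfox2 OE. Called lower in Rbfox2 OE were 5: Kcnq1, Kcnh2, Kcnd2, Kcnd3 and Kcnv2. Of all 11697 genes with such a mean, 868 were called lower, a share of 7.42%. Called higher were 0 of the 9, against 5.27% of all genes, and no test stands behind this count because each group has 1 value per gene. The remaining 4 genes were not called: Kcnip2 and Kcna5 were the members with more FPKM in Rbfox2 OE, and Kcne1 and Kcna4, which were lower by value, did not reach the minimum mean. Kcnd3 and Kcnv2 reached that minimum through the control, since both were under 1 FPKM in Rbfox2 OE. The median log2 ratio of the 7 genes was -1.54, beside -0.06 over all compared genes.

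**Figure D1:**
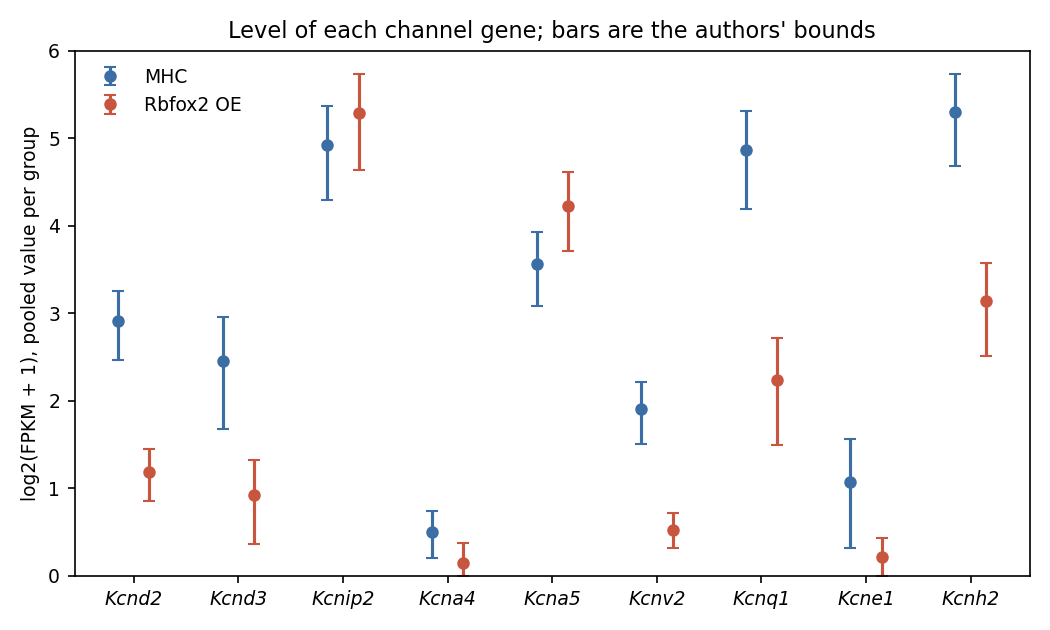
Pooled level of each of the 9 genes in MHC (blue) and Rbfox2 OE (red), as log2(FPKM + 1), with bars from the authors' lower to upper bound. Bounds are separate for Kcnd2, Kcnd3, Kcnv2, Kcnq1 and Kcnh2, all lower in Rbfox2 OE, and overlap for the other 4 genes.

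The Kv4 pore genes of the fast transient outward current were both lower. Kcnd2 (chromosome 6, 21215503 to 21729805, plus strand, 6 exons) stood at 6.50 FPKM in MHC (bounds 4.50 to 8.50) and 1.27 FPKM in Rbfox2 OE (0.803 to 1.73). That is 19.5% of the control, a log2 ratio of -1.73, and the most cautious pairing of bounds still gave -1.01. Kcnd3 (chromosome 3, 105452330 to 105674002, plus strand) stood at 4.48 FPKM in MHC (bounds 2.2 to 6.77) and 0.891 FPKM in Rbfox2 OE (0.287 to 1.49), or 19.9% of the control with a log2 ratio of -1.54. The most cautious pairing of its bounds gave -0.36, so the Kcnd3 bounds are separate but do not hold a 2-fold difference apart. By its pooled values Kcnd2 stood at 1.45 times the level of Kcnd3 in MHC (0.665 to 3.87 by the bounds) and 1.42 times in Rbfox2 OE (0.537 to 6.05), ranges too wide to show whether the proportion changed.

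Their accessory partner was not lower. Kcnip2 (chromosome 19, 45791839 to 45816061, minus strand) stood at 29.4 FPKM in MHC (bounds 18.6 to 40.2) and 38.1 FPKM in Rbfox2 OE (23.9 to 52.3), with a log2 ratio of 0.37 and overlapping bounds. Set against the summed level of Kcnd2 and Kcnd3, Kcnip2 stood at 2.67 to 1 in MHC and 17.7 to 1 in Rbfox2 OE. The extreme pairings of bounds put this quotient between 1.22 and 5.99 in MHC and between 7.4 and 48.0 in Rbfox2 OE, ranges that do not overlap. The quotient compares FPKM values and not protein, so it is no count of subunits per channel.

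Upstream sequence is shown for these 3 partners and for Kcna5, which like Kcnip2 was not lower. Each run holds the 250 bases before the RefSeq transcript start (GRCm38.p6), 5′ to 3′ on the strand of the gene, with GC boxes (GGGCGG or its reverse complement) and the E-box form CAGCTG in capitals.
Kcnd2, chr6:21215096-21215345, plus strand: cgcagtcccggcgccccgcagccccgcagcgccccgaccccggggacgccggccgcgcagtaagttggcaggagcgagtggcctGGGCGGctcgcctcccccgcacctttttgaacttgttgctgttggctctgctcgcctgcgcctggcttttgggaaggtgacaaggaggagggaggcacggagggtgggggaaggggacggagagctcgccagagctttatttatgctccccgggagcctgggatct
Kcnd3, chr3:105451640-105451889, plus strand: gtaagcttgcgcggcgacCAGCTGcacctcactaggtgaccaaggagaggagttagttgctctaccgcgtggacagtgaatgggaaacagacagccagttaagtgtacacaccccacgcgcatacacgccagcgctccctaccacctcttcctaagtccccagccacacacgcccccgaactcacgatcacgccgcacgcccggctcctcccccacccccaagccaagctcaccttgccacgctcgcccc
Kcnip2, chr19:45816064-45816313, minus strand: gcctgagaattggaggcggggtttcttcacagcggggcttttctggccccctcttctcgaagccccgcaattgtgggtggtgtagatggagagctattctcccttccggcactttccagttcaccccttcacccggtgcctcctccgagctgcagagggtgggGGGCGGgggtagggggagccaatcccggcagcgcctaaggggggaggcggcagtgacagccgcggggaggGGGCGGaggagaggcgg
Kcna5, chr6:126535556-126535805, minus strand: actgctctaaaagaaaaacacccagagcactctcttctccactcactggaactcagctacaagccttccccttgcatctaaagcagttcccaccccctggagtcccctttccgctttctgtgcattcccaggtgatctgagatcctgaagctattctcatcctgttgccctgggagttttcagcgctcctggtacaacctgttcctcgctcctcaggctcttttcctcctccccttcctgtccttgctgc
The GC content was 68.8% for Kcnd2, 62.8% for Kcnd3, 66.8% for Kcnip2 and 53.2% for Kcna5, beside a median of 52.4% over 32851 promoters. Kcnd2 held 1 GC box, Kcnip2 held 2 and Kcnd3 and Kcna5 held 0, and 32.7% of all promoters held at least 1. A TATA box (TATAAA), found in 12.4% of all promoters on either strand, was in none of the 4 windows. Nor were the E-box form CACGTG (6.02% of promoters) or the GATA site AGATAA (9.99%). The E-box form CAGCTG (13.0%) was in that of Kcnd3, 1 time, and in none of the other 3. The GC content was thus above the median for Kcnd2, Kcnd3 and Kcnip2 and near it for Kcna5. Whether upstream sequence bears on the calls was not tested. RefSeq windows were matched for 6 of the 9 genes.

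The Kv1 genes went apart. Kcna5 (chromosome 6, 126532551 to 126535412, minus strand, 1 exon) stood at 10.8 FPKM in MHC (bounds 7.50 to 14.2) and 17.7 FPKM in Rbfox2 OE (12.05 to 23.4). This is 164% of the control, a log2 ratio of 0.66, with bounds that overlap. Kcna4 (chromosome 2, 107290639 to 107298502, plus strand) was the lowest of the 9 genes, at 0.408 FPKM in MHC (bounds 0.153 to 0.663) and 0.103 FPKM in Rbfox2 OE (0 to 0.298). Its Rbfox2 OE value was 25.2% of the control, but the bounds overlap, the values are near 0 and the log2 ratio with the pseudocount was only -0.35. Set against Kcnd2 plus Kcnd3, Kcna5 stood at 0.987 to 1 in MHC (0.491 to 2.12 by the bounds) and at 8.22 to 1 in Rbfox2 OE (3.73 to 21.5).

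Kcnv2 encodes Kv8.2, a subunit that forms no channel alone and modifies the channels of other pore-forming subunits. Kcnv2 (chromosome 19, 27322588 to 27337179, plus strand) stood at 2.73 FPKM in MHC (bounds 1.83 to 3.63) and 0.441 FPKM in Rbfox2 OE (0.244 to 0.639). It was at 16.2% of the control. Its bounds were separate and its log2 ratio was -1.37, or -0.79 by the most cautious pairing. Without the pseudocount the MHC lower bound was 2.86 times the Rbfox2 OE upper bound.

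With the pseudocount of 1 FPKM, the delayed rectifier pore genes Kcnq1 and Kcnh2 held the most negative log2 ratios of the 9. With 0.1 FPKM in its place Kcnv2 (-2.39) came before Kcnh2 (-2.28), and without a pseudocount Kcne1, Kcnv2, Kcnd2 and Kcnd3 all did. Kcnq1 (chromosome 7, 143106362 to 143427042, plus strand, 16 exons) stood at 28.1 FPKM in MHC (bounds 17.3 to 38.8) and 3.71 FPKM in Rbfox2 OE (1.82 to 5.59), 13.2% of the control. Its log2 ratio of -2.63 was below that of 99.6% of all compared genes, and its most cautious pairing of bounds gave -1.48. Kcnh2 (chromosome 5, 24319589 to 24351604, minus strand, 15 exons) stood at 38.5 FPKM in MHC (bounds 24.7 to 52.3) and 7.82 FPKM in Rbfox2 OE (4.71 to 10.9), 20.3% of the control. Its log2 ratio was -2.16, below that of 99.0% of compared genes, and -1.10 by the most cautious bounds. With the pseudocount, Kcnq1, Kcnh2 and Kcnd2 were the 3 members whose 2-fold difference held across the whole width of the bounds. Without it Kcnv2 was a further one, and Kcnd3, at 1.47 times, was not.

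Kcne1, the minK partner of Kcnq1 (chromosome 16, 92345982 to 92359468, minus strand), stood at 1.10 FPKM in MHC (bounds 0.246 to 1.95) and 0.155 FPKM in Rbfox2 OE (0 to 0.348). Its Rbfox2 OE value was 14.1% of the control, a share close to that of Kcnq1, while its bounds overlap and its log2 ratio with the pseudocount was -0.86. The quotient of Kcne1 to Kcnq1 was 0.0391 in MHC (0.00633 to 0.113 by the bounds) and 0.0419 in Rbfox2 OE. The bounds of Kcne1 in Rbfox2 OE reach 0, so the quotient there is known only to lie at or below 0.191. These ranges are too wide to show whether the proportion changed. The table has 1 row per gene, so the long and short isoforms of Kcnh2 and those of Kcnq1 and Kcnip2 are summed and a shift between isoforms would not show.

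**Figure D2:**
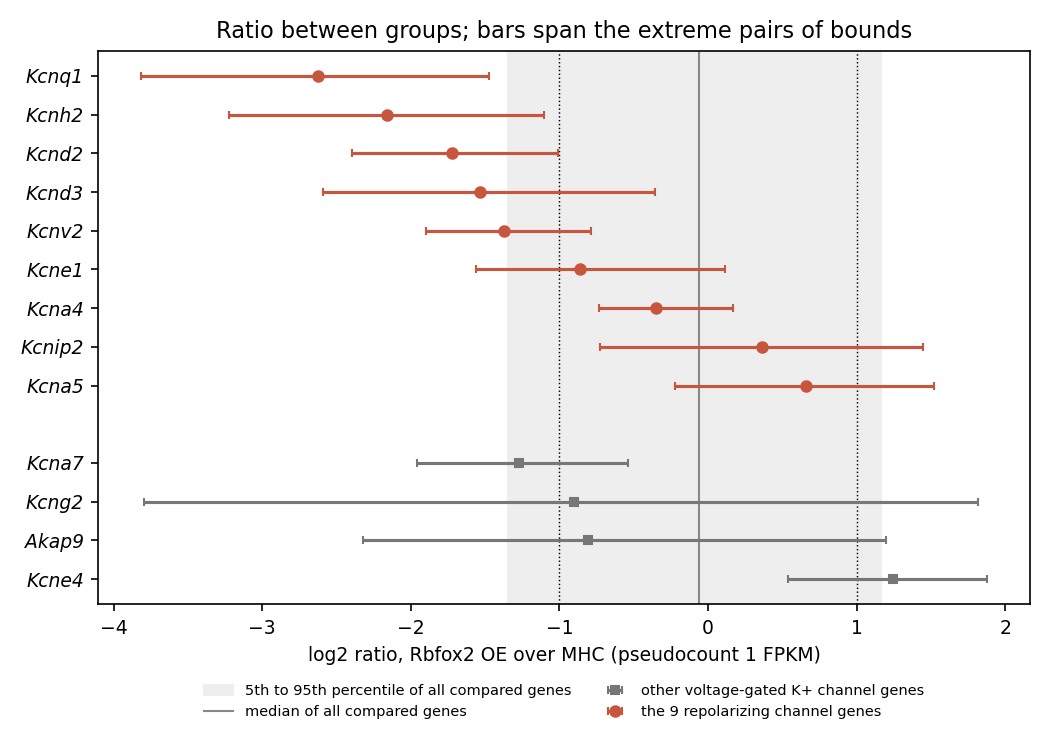
Log2 ratio of Rbfox2 OE over MHC (pseudocount 1 FPKM) for the 9 genes (red circles) and for Kcna7, Kcng2, Akap9 and Kcne4 of the rest of the family (grey squares); bars span the extreme pairings of bounds, dotted lines mark 2-fold and the grey band runs from -1.35 to 1.17, the 5th and 95th percentiles of all compared genes. Kcnq1, Kcnh2, Kcnd2, Kcnd3 and Kcnv2 lie below the band, and Kcnip2 and Kcna5 lie to the right of 0.

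The order of the genes by level changed. In MHC the order was Kcnh2, Kcnip2, Kcnq1, Kcna5, Kcnd2, Kcnd3, Kcnv2, Kcne1 and Kcna4, and among neighbours only Kcnq1 and Kcna5 had separate bounds. In Rbfox2 OE it was Kcnip2, Kcna5, Kcnh2, Kcnq1, Kcnd2, Kcnd3, Kcnv2, Kcne1 and Kcna4. There the bounds were separate between Kcnip2 and Kcna5, between Kcna5 and Kcnh2 and between Kcnq1 and Kcnd2, and overlapped between the other neighbours. From Kcnd2 down the order was the same in both groups.

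Summed over the 6 pore-forming genes, the level was 88.8 FPKM in MHC (56.3 to 121 when all lower or all upper bounds are summed) and 31.5 FPKM in Rbfox2 OE (19.7 to 43.5), or 35.5% of the control. Kcnh2 made up 43.3% of the sum in MHC and 24.8% in Rbfox2 OE, and Kcnq1 made up 31.6% and 11.8%. Kcna5 made up 12.2% of the sum in MHC (6.55% to 22.5% by the bounds) and 56.3% in Rbfox2 OE (37.5% to 75.5%). Kcna5, the short 1-exon gene, was thus the most abundant of the pore-forming transcripts in Rbfox2 OE and the third in MHC.

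**Figure D3:**
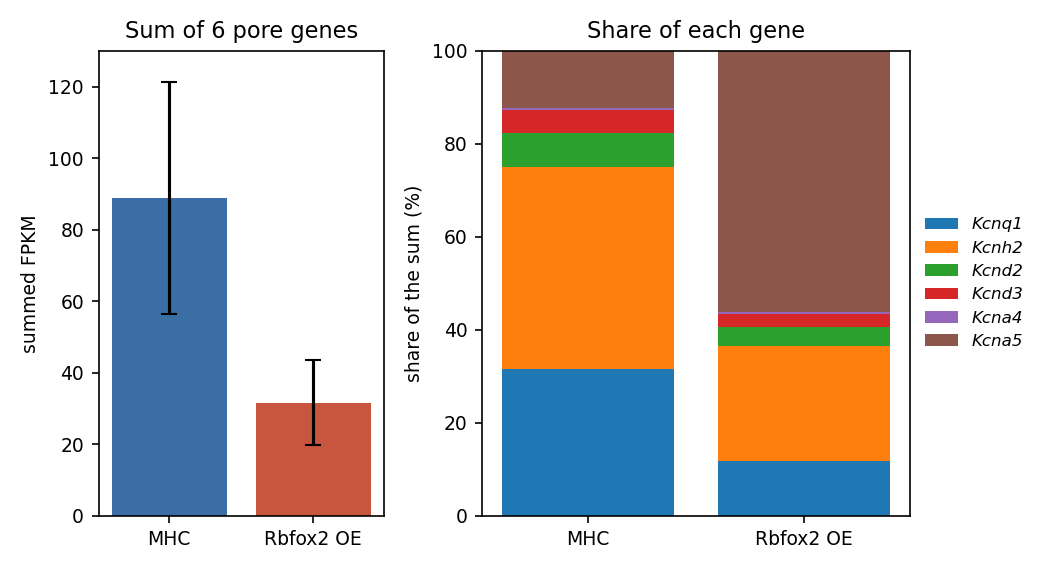
Left, FPKM summed over the 6 pore-forming genes in each group, with bars from the summed lower to the summed upper bounds; right, the share of each gene in that sum in percent. The sum is 88.8 FPKM in MHC and 31.5 FPKM in Rbfox2 OE, and the share of Kcna5 is 12.2% and 56.3%.

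The rest of the voltage-gated potassium channel family, a list of 46 further pore-forming, silent and accessory genes, was mostly near 0. Only 7 of the 46 averaged 1 FPKM or more, and 5, Kcne2 and Dpp10 among them, were listed at 0 in both groups. By value 5 of the 7 were lower in Rbfox2 OE, as were 5 of the 7 members. Of the 7, called lower was 1 and called higher 1, beside 7.42% and 5.27% of all compared genes. Both reached the minimum mean through the group where they were high, so their calls are a description only. Kcna7 (Kv1.7) was the one called lower, at 3.05 FPKM in MHC (bounds 1.93 to 4.17) and 0.675 FPKM in Rbfox2 OE (0.331 to 1.02), a log2 ratio of -1.27. Kcne4, an accessory subunit of the minK family, was the one called higher, at 0.519 FPKM in MHC (bounds 0.253 to 0.786) and 2.60 FPKM in Rbfox2 OE (1.59 to 3.61), a log2 ratio of 1.25.

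The other 5 were not called, and their bounds overlap. Kcng2, a silent subunit (Kv6.2), had the highest value of the family, 82.7 FPKM in MHC and 43.7 FPKM in Rbfox2 OE, with wide bounds (21.5 to 144 and 9.43 to 78.0). Akap9, a scaffold that tethers protein kinase A to the Kcnq1 channel, stood at 9.95 FPKM in MHC and 5.26 FPKM in Rbfox2 OE, a log2 ratio of -0.81. Kcnip3, a relative of Kcnip2 under the minimum mean, stood at 0.406 FPKM in MHC and 1.25 FPKM in Rbfox2 OE, bounds apart; it was named after its values were seen.

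Genes that share a locus with the set had little signal. The table lists 12 within that of Kcnq1, 1 with Kcnh2, 3 with Kcnd2 and 2 with Kcnd3, and other than Kcnd3os none exceeded 0.422 FPKM (Gm38321, in MHC). The antisense transcript Kcnq1ot1, which overlaps Kcnq1, stood at 0.00804 FPKM in MHC and 0.0468 FPKM in Rbfox2 OE. The antisense gene Kcnd3os, at the start of Kcnd3, stood at 0.205 FPKM in MHC and 1.27 FPKM in Rbfox2 OE; its bounds overlap, and its direction was opposite to that of Kcnd3. The loci of Kcnip2, Kcna4, Kcna5, Kcnv2 and Kcne1 hold 0 other genes. The libraries were stranded, but whether strand was used in counting is not stated, so fragments of the antisense pairs may not be separated.

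The genes called lower included the longest of the set and also short ones. Kcnd2, Kcnq1 and Kcnd3 span 514, 321 and 222 kb, Kcnh2 and Kcnip2 span 32.0 and 24.2 kb, and Kcnv2, Kcne1, Kcna4 and Kcna5 span 14.6, 13.5, 7.86 and 2.86 kb. Among all compared genes of 200 kb or more, 21.8% of 500 were called lower and the median log2 ratio was -0.56. Among those of 30 to 100 kb, the class of Kcnh2, 8.36% were called lower; among those of 10 to 30 kb, the class of Kcnv2, it was 5.87%. The part of gene length in the lower values of Kcnd2, Kcnq1 and Kcnd3 was not tested.

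Marker genes of several cell types also differed in level between the groups, and in bulk RNA fewer cells of a type and less RNA per cell cannot be told apart. The cardiomyocyte markers were the most abundant of the marker lists, but Myh6 and Mb were listed at 0 with a status of too much data to estimate. The other 14 of 16 summed to 66502 FPKM in MHC and 42496 FPKM in Rbfox2 OE, with a median log2 ratio of -0.65. Of these 14, 4 were called lower and 0 higher. Over all compared genes, the shares to set beside this and the marker counts below were 7.42% called lower and 5.27% called higher. Markers of other cells were higher by value: fibroblast markers summed to 231 and 544 FPKM (6 of 10 called higher), macrophage and leukocyte markers to 114 and 401 FPKM (9 of 11), endothelial markers to 246 and 432 FPKM (3 of 10), and smooth muscle and pericyte markers to 208 and 349 FPKM (1 of 10, with 1 called lower). Red blood cell markers summed to 56.6 and 295 FPKM (4 of 5 called higher) and atrial markers to 477 and 3397 FPKM (6 of 9). Nppa held much of the atrial sums, at 118 FPKM in MHC and 2178 FPKM in Rbfox2 OE, and 1 of the 9, Pam, was lower by value. Neuron and glia markers summed to 9.42 and 13.1 FPKM, but only 1 of the 7 reached the minimum mean and could be called, and it was not.

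Set on the scale of the cardiomyocyte markers, which multiplies every Rbfox2 OE value so that the median marker is equal in both groups, Kcnq1 had a log2 ratio of -2.09, Kcnh2 of -1.57, Kcnd2 of -1.33, Kcnd3 of -1.19 and Kcnv2 of -1.14. The bounds of Kcnd3 then overlapped and 4 genes remained called lower, against 2.33% of all genes. On this scale the median of all compared genes moved to 0.50. Kcna5 was then called higher, at 1.28, as were 17.1% of all genes, and Kcnip2 stood at 1.001 with overlapping bounds. The markers behind this scale ranged widely before it was applied, from Tcap (-2.37) and Ldb3 (-1.99) to Ttn (0.60). With the pseudocount of 1 FPKM, Kcnq1 alone of the 9 had a lower log2 ratio than every estimated marker. Without a pseudocount Kcne1 (-2.82) and Kcnv2 (-2.63) also lay below Tcap, whose high FPKM a pseudocount hardly moves. The part of the cell makeup in the lower values of the channel genes was not tested.

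**Figure D4:**
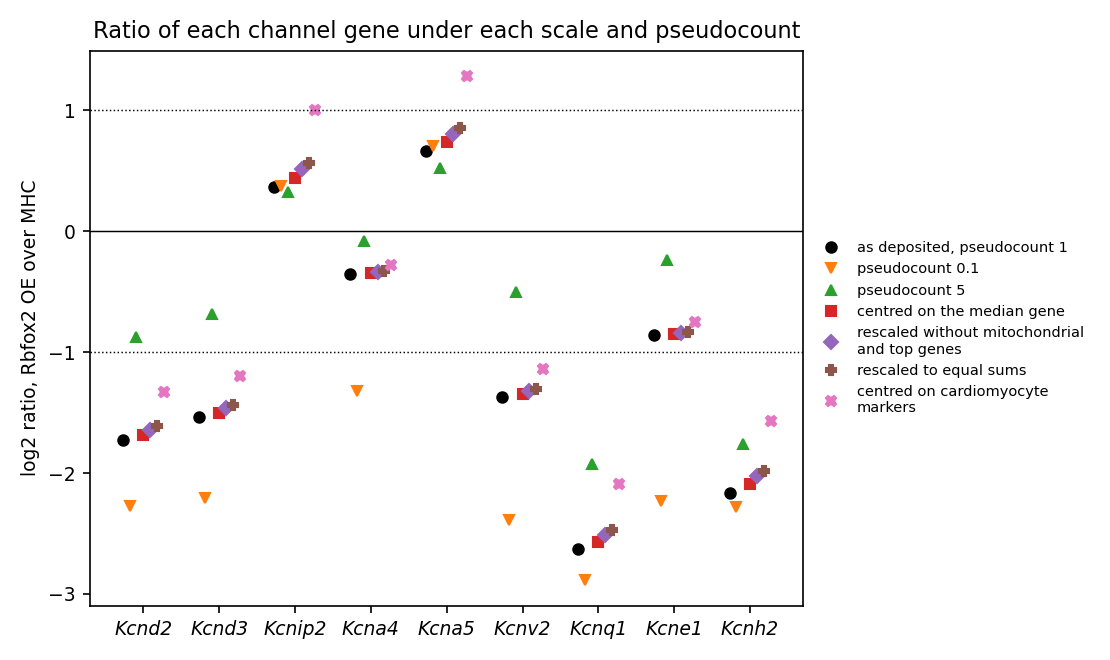
Log2 ratio of Rbfox2 OE over MHC for each of the 9 genes under 3 pseudocounts and 4 other scales of the Rbfox2 OE values; dotted lines mark 2-fold. The sign is the same at each setting for each gene, though a pseudocount cannot change a sign. The pseudocount moves the low genes most, Kcne1 from -0.24 to -2.23.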

How the data were processed

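The deposited table holds FPKM from the authors' Cuffdiff run, per the file headers: 1 pooled value for each gene in each group, flanked by 2 bounds in the same unit. Per the submitters' processing notes, the tools were bcl2fastq 2.17.1.14, Trimmomatic, STAR 2.4.2a, Picard 1.119, HTSeq, DESeq2 and Cuffdiff 2.2.1 on GRCm38 (mm10); their roles, the annotation and the scaling mode are not given in the sources used here. The number of unused columns of values was 0.

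Rows sharing a name (110 names) were summed. The log2 ratio used a pseudocount of 1 FPKM, and genes averaging 1 FPKM or more were compared. Calls needed a 2-fold ratio and separate bounds; no p-values were computed, since a test needs values per library and the table holds none. Coordinates are from GENCODE M21 on GRCm38, which held 99.2% of the identifiers, and promoters from RefSeq. Named were the 9 genes, up to 8 further family genes by size of ratio (7 passed the filter), genes sharing a locus with the 9 (mostly as counts), and Rbfox2 and Rbfox1; Kcnip3 is an exception. Some genes that the rule chose are left out of the text. The members and lists were chosen with earlier results of these data known, and the classes of gene length and the motif searches were added after values were seen. Calculations were tested on simulated data with Python 3.11.15, numpy 2.4.6 and pandas 2.3.3. Alternatives covered the pseudocount, filter, scale, fold, bounds and status.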

Additional observations from a re-analysis of the deposited data

How the results depend on the processing

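No paired analysis was possible because values are pooled over the libraries of a group and the replicate numbers of the labels carry none; leaving out each library in turn was not run for the same reason. How far animals differ, and the depth behind values near 0, limits every result. The log2 ratios of the 9 genes kept their sign in 54 of 54 values under the 6 alternatives that can move a ratio (pseudocounts and scales). Part of this count was fixed in advance, since a pseudocount cannot change the sign of a ratio. Every other scale raised the Rbfox2 OE values, so the positive signs of Kcnip2 and Kcna5 could not change there either. Only the genes lower in Rbfox2 OE could have changed sign, and only under the scales. Over all 13 alternatives 104 of 112 values kept their side of the call, not counting 5 of genes that the minimum mean of 5 FPKM removed. Much of this count was fixed in advance too. Kcne1 and Kcna4 lie under the minimum mean, so they could be called only where no minimum was set. A lower fold threshold, the fold or the bounds alone, no minimum and the status rule could not remove a call from the 5 genes. Of the 5 genes called lower, 2 (Kcnq1 and Kcnh2) remained with a pseudocount of 5 (3.93% of all genes called lower), with a 4-fold threshold (1.21%) and with a minimum mean of 5 FPKM (9.24%), which removed Kcnd2, Kcnd3 and Kcnv2 from the comparison. The median log2 ratio was -0.69 with a pseudocount of 5 and -0.90 with the minimum of 5 FPKM. On the scale of the cardiomyocyte markers 1 of the 9 genes, Kcna5, was called higher. Of the other family genes, 0 were called lower with pseudocount 5, minimum mean 5 FPKM, 4-fold threshold or the cardiomyocyte scale. Under the first 3 of these, 0 were called higher, beside 2.21%, 5.08% and 1.01% of all genes. The minimum mean of 5 FPKM removed both called genes, Kcna7 and Kcne4, from the comparison, so the counts of 0 there describe the filter. A larger pseudocount shrinks the ratios of low genes by construction.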
